A study of Mus musculus with 24 samples.

Results

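The amino acid transporter genes were taken as the protein-coding rows of the deposited expression table whose symbols belong to the solute carrier families Slc1, Slc3, Slc6, Slc7, Slc36, Slc38 and Slc43, leaving out Slc7a11 and Slc7a13. The rule found 40 of 14785 genes. Of these, 39 encode members of the transporter families, among them carriers of glutamate, neutral, cationic and imino amino acids, taurine, creatine, betaine and serotonin. The other one, Slc7a6os, matched the rule by name alone. It is the neighbour of Slc7a6 on the opposite strand of chromosome 8, and its values are given apart.

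RNA was measured by polyA-selected sequencing of whole kidneys from 24 C57/BL6 mice aged 8 weeks, in 6 groups of 4. The groups were sham surgery, unilateral ureteral obstruction (UUO) for 2 days (UUO2), obstruction for 7 days (UUO7), and obstruction for 7 days followed by its reversal and recovery. Recovery lasted 1 week in R1W, 2 weeks in R2W and 4 weeks in R4W. No genetic change is named for any group, and the same 4 sham animals served every time point, so comparisons with sham share their controls. The age label is 8 weeks in every group, also after 4 weeks of recovery, and no recovery group has a sham group of its own. Recovery therefore cannot be told apart from age or time since surgery in comparisons with sham. The title of R4W replicate 2 gives 4 weeks of recovery and its treatment label gives 2 weeks. It was kept in R4W, and the counts with it moved to R2W are given at the end.

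The proximal tubule takes back nearly all filtered amino acids. Carriers of the luminal brush border, several of them driven by sodium, bring amino acids into the cell, and exchangers and uniporters of the basolateral membrane pass them on to the blood. Several carriers are 2-chain proteins, with a heavy chain from the Slc3 family (Slc3a1 or Slc3a2) joined to a light chain from the Slc7 family. Other members serve the cell's own needs, such as uptake for protein synthesis (Slc7a5, Slc1a5, Slc38a2), sensing of amino acids at the lysosome (Slc38a9) and osmolyte balance in the medulla (Slc6a12).

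Levels are taken as FPKM, fragments per kilobase of transcript scaled to library size, so they can be compared between genes. No label names the unit, which was judged from the values. The table keeps fragments in whole steps in 20 libraries. With the values read as FPKM, the steps gave implied depths of 24718000 to 35306000 fragments. No such steps were found in the 4 UUO2 libraries, and their mitochondrial 12S ribosomal RNA (mt-Rnr1) was 2343 to 2832 FPKM against 342 to 709 FPKM in the other 20. UUO2 and any difference in library preparation therefore cannot be told apart. A further pair of libraries stood apart in markers of other tissues. Sham replicate 2 had summed levels of 624 FPKM for 3 collecting duct markers against 216 to 302 in the other sham kidneys, 291 against 40.4 to 48.5 FPKM for 5 adipose markers, and 30.4 against 1.42 to 2.17 FPKM for 4 urothelial markers. R4W replicate 1 had an adipose sum of 1644 FPKM, against 62.5 to 402 FPKM in the other R4W kidneys. Its collecting duct sum (800 FPKM against 334 to 534) and urothelial sum (117 FPKM against 36.8 to 86.8) were also the highest of that group. None of the 5 adipose markers was at 0 in either of these kidneys, and at most 3 were at 0 in any library.

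The kidney identity of the libraries was checked against 10 proximal tubule markers, none of which was at 0 in any library. Kap made up most of their sum, so the other 9 were summed apart. That sum was 3968 to 4482 FPKM in sham, 1687 to 2881 FPKM in UUO2, 921 to 1140 FPKM in UUO7, 1322 to 2130.5 FPKM in R1W, 1441 to 2674 FPKM in R2W and 2114 to 2906 FPKM in R4W. Slc34a1 alone made up most of it in UUO7, R1W and R4W, with means of 651, 1108 and 1610 FPKM. The 6 macrophage markers summed to 48.7 to 81.9 FPKM in sham, 82.4 to 189 FPKM in UUO2, 937 to 1126 FPKM in UUO7 and 690 to 1368 FPKM in R4W, with none at 0 in any library. Fibroblast markers summed to 10.5 to 23.9 FPKM in sham, 366 to 487 FPKM in UUO7 and 142 to 219 FPKM in R4W. Lymphocyte markers summed to 1.23 to 2.52 FPKM in sham, 9.70 to 14.4 FPKM in UUO7 and 11.9 to 23.5 FPKM in R4W. In whole-kidney RNA, fewer cells of a type and less RNA per cell cannot be told apart, and the part of any of these shifts in the transporter results was not tested.

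An FPKM value depends on all other RNA in its library. When each library was rescaled by the median ratio of its genes to their geometric mean, the median gene moved from 0.42 to 0.01 (log2) in UUO7 against sham. Counts of calls are therefore given on the deposited values first and on the rescaled values second. A gene was called at an adjusted p under 0.05 from limma, with Benjamini-Hochberg adjustment over all genes of the table, and differences are of log2(FPKM + 1), in which the added 1 shrinks the change of genes near 0. A gene is said here to have risen or fallen where it was called in that direction on the deposited values, and it is named where the rescaled values did not give the same call.

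After 7 days of obstruction the transporters had moved in both directions, in some roles mostly one way and in others not. The split by role was not tested. Of the 40 members, 16 were called higher and 15 lower than sham, against a background of 60.1% of all genes called higher and 17.8% lower. On rescaled values 13 were higher and 22 lower, with 36.5% of all genes called in each direction. The median log2 difference of the members was 0.13, beside 0.42 for all genes, and after rescaling -0.31 beside 0.01. Carriers of the tubule's 2 membranes held 10 of the 15 falls, and the neutral uptake carriers and the cationic carriers Slc7a1 and Slc7a2, grouped with their relatives Slc7a4 and Slc7a12, held 9 of the 16 rises.

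**Figure D1:**
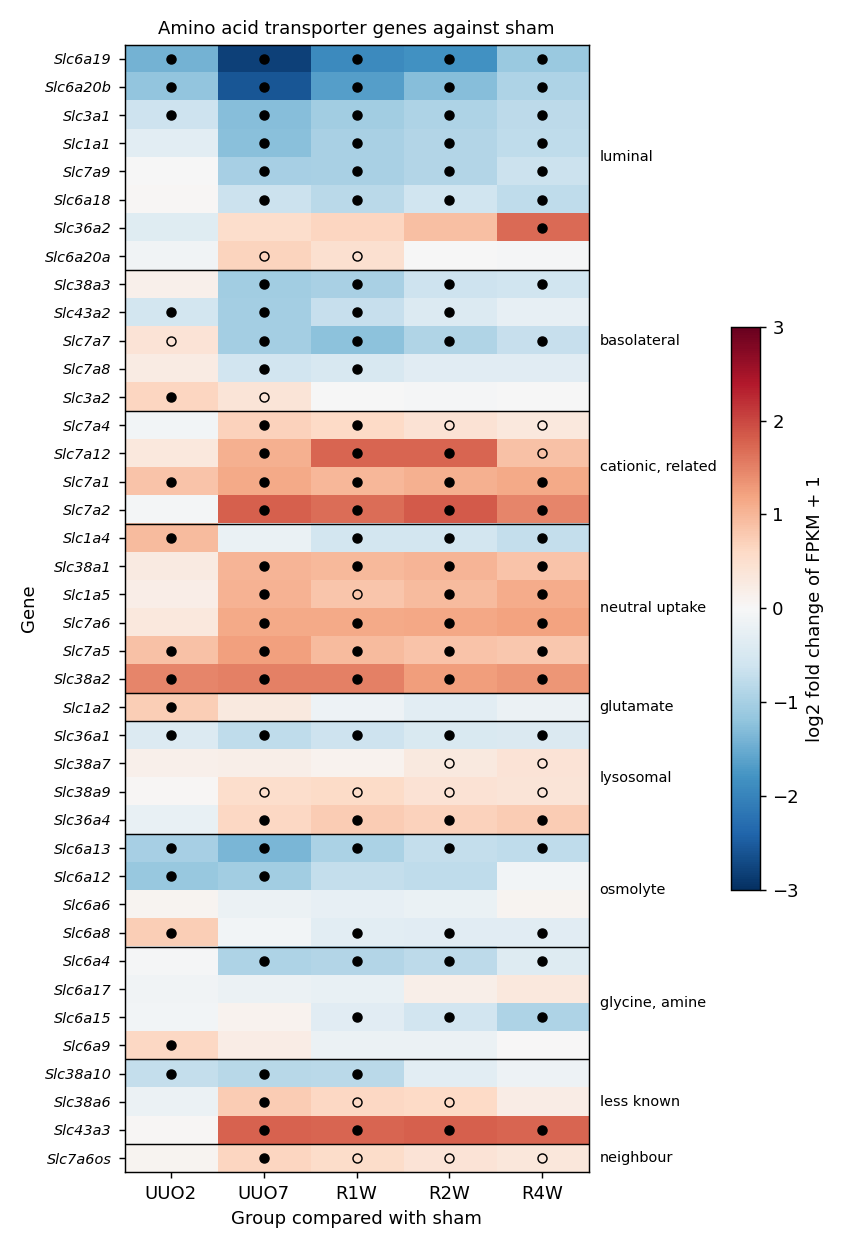
Log2 fold change of FPKM + 1 of each of the 40 genes (rows, grouped by role) in each group against sham (columns); colour gives the size of the change, filled circles mark calls that hold on both scalings and open circles calls on deposited values that the rescaled values did not give. Of the 8 luminal genes 6 are blue from UUO7 on, with Slc6a19 and Slc6a20b the deepest at -2.81 and -2.57, while at UUO7 the 4 cationic and related genes and 5 of the 6 neutral uptake genes are red.

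The luminal carriers of the brush border fell the furthest. At 7 days 6 of 8 fell, namely Slc6a19, Slc6a20b, Slc3a1, Slc1a1, Slc7a9 and Slc6a18, where 17.8% of all genes were lower and 36.5% after rescaling. Slc6a20a was called higher on the deposited values alone, and Slc36a2 was not called. The median log2 difference of the 8 was -1.13, beside 0.42 for all genes.

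Slc6a19 (ENSMUSG00000021565.16, mm10 chr13:73679745-73704865, minus strand) encodes B0AT1, the main sodium-driven carrier of neutral amino acids in the brush border, whose loss in people causes Hartnup disorder. Its levels were 66.1, 68.5, 91.0 and 72.3 FPKM in sham, 25.7, 40.7, 25.6 and 19.5 FPKM in UUO2, and 10.5, 12.6, 7.97 and 8.26 FPKM in UUO7. With recovery they were 21.3, 13.4, 20.6 and 21.7 FPKM in R1W, 18.4, 28.1, 11.7 and 27.3 FPKM in R2W, and 25.9, 28.1, 35.5 and 47.9 FPKM in R4W. Sham, UUO2 and UUO7 did not overlap, and every R1W and R4W kidney lay above every UUO7 kidney and below every sham kidney. The fall at 7 days was -2.81 ± 0.25 (log2, SE; adjusted p = 3.4e-09). By 4 weeks the level was 1.69 ± 0.25 above UUO7 (adjusted p = 3.2e-05) and still -1.12 ± 0.25 from sham (adjusted p = 0.00061).

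Slc6a18 (chr13:73661752-73678023, minus strand), the adjoining gene on the same strand, encodes a glycine and neutral amino acid carrier of the late proximal tubule. It had the highest level of all members in sham, at 317, 274, 309 and 287 FPKM. In UUO7 it was 229, 177, 193 and 162 FPKM, and in R4W 174, 167, 167 and 196 FPKM. It fell less than its neighbour, by 0.65 at 7 days (adjusted p = 0.00061). It stayed below sham at 4 weeks on both scalings, and R4W differed from UUO7 by -0.10 ± 0.15 (adjusted p = 0.60). The authors' deposited table calls it higher in R4W than in UUO7 (0.36, adjusted p = 0.016). The ratio of Slc6a18 to Slc6a19 within a kidney was 4.01 in sham (geometric mean of 4 animals), 19.5 in UUO7 and 5.27 in R4W.

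Slc6a20b and Slc6a20a are close copies lying side by side on chromosome 9 (chr9:123590800-123632565 and chr9:123634770-123678885), related to the proline and imino acid carrier SIT1. Slc6a20b was 81.9, 69.7, 89.5 and 75.5 FPKM in sham, 13.8, 14.8, 10.2 and 11.5 FPKM in UUO7, and 37.9, 38.2, 39.3 and 48.2 FPKM in R4W, with no overlap between these 3 groups. Slc6a20a was 9.54, 6.78, 9.33 and 8.96 FPKM in sham, 13.6, 14.0, 13.7 and 15.5 FPKM in UUO7, and 7.59, 8.46, 8.55 and 8.92 FPKM in R4W. Slc6a20b fell by 2.57 at 7 days (adjusted p = 2.4e-09), while Slc6a20a was higher by 0.66 (adjusted p = 3.9e-05), a call lost after rescaling (0.22). Because the copies are alike, reads may have been split between them, and both levels are uncertain to that extent.

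The ratio of the 2 copies does not depend on library scaling. Slc6a20b exceeded Slc6a20a by 8.43 to 10.3 times in sham, by 3.55 to 4.78 times in UUO2, and by 4.51 to 5.41 times in R4W. In UUO7 the ratio was 0.743 to 1.06. All 3 tested differences of this ratio (UUO7 against sham, R4W against UUO7 and R4W against sham) had an exact two-sided permutation p of 0.0286, the smallest that 4 against 4 animals can give, and an adjusted p of 0.0396 over the 18 ratio tests made.

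Slc3a1 and Slc7a9 encode the heavy and light chains of the luminal cystine and dibasic amino acid carrier, mutated in cystinuria. Slc3a1 was 284, 227, 289 and 256 FPKM in sham, 164, 211, 171 and 146 FPKM in UUO2, 115, 113, 100.2 and 100.5 FPKM in UUO7, and 147, 143, 144 and 177 FPKM in R4W. Slc7a9 was 66.0, 61.4, 72.2 and 57.3 FPKM in sham, 60.9, 67.7, 71.0 and 55.3 FPKM in UUO2, 32.5, 35.9, 28.6 and 29.6 FPKM in UUO7, and 35.5, 40.2, 39.8 and 47.6 FPKM in R4W. The heavy chain was thus already below every sham kidney at 2 days, while the light chain overlapped sham. Slc3a1 fell by 0.62 at 2 days (adjusted p = 0.0029) and by 1.29 at 7 days (adjusted p = 2.5e-07), and Slc7a9 differed by -0.01 ± 0.12 at 2 days (adjusted p = 0.94) and fell by 1.00 at 7 days (adjusted p = 2.9e-07). Slc3a1 overlaps Prepl on the opposite strand, and the strand use of the counting is not given in the sources used here.

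Their ratio was 4.11 in sham, 2.70 in UUO2, 3.40 in UUO7 and 3.76 in R4W. UUO7 was below sham by 0.27 (log2; exact permutation adjusted p = 0.0396), and neither R4W against UUO7 (0.14, adjusted p = 0.0643) nor R4W against sham (-0.13, adjusted p = 0.171) passed.

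Slc1a1, the glutamate and aspartate carrier EAAC1, was 74.8, 58.9, 76.0 and 69.3 FPKM in sham and 29.4, 28.8, 26.4 and 29.5 FPKM in UUO7, a fall of 1.26 (adjusted p = 5.8e-08) with no overlap. Its R4W levels, 38.5, 39.6, 38.8 and 46.8 FPKM, lay between the 2 groups and apart from both. Slc36a2, the proton-driven carrier PAT2 of glycine and proline, was near 0 in 3 of 4 sham kidneys and in all 4 UUO2 kidneys. It was 0, 2.28, 0.03 and 0 FPKM in sham, 0.68 to 1.30 FPKM in UUO7, and 15.2, 2.14, 2.91 and 0.84 FPKM in R4W. The highest value within sham was that of replicate 2 and the highest within R4W that of replicate 1, the kidneys with the highest adipose marker sums of their groups (291 and 1644 FPKM). Both also had the highest collecting duct and urothelial sums of their groups. R4W replicates 2, 3 and 4 had adipose sums of 62.5, 402 and 69.8 FPKM. In R1W the gene was 0.83 to 1.57 FPKM at adipose sums of 85.0 to 151 FPKM. In R2W it was 0.71 to 2.76 FPKM at adipose sums of 75.4 to 89.35 FPKM. PAT2 is also known as a surface protein of brown fat cells. The part of adipose or other tissue in these values was not tested. The call of Slc36a2 in R4W against sham (1.69, adjusted p = 0.0029) was 1.06 without R4W replicate 1 (adjusted p = 0.011), and that in R4W against UUO7 (1.16, adjusted p = 0.040) was lost without it (0.53, adjusted p = 0.21). The latter call was also lost without R4W replicate 3 or any single UUO7 replicate (1.09 to 1.24, adjusted p from 0.055 to 0.085).

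The fall of Slc6a19 went beyond that of another brush border gene. Its ratio to Slc34a1, the phosphate carrier of the proximal tubule, was 0.0268 in sham, 0.0225 in UUO2, 0.0149 in UUO7 and 0.0209 in R4W. UUO7 was below sham by 0.85 (log2; exact permutation adjusted p = 0.0396), and the kidneys of these 2 groups did not overlap. R4W did not pass against UUO7 or against sham (adjusted p = 0.0643 each). The sum of the 9 proximal tubule markers without Kap fell from a median of 4178 to 1017 FPKM between sham and UUO7, beside these luminal changes. Slc34a1 is among these 9 and made up most of their sum in UUO7 (mean 651 FPKM), so the sum is not a measure apart from it.

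**Figure D2:**
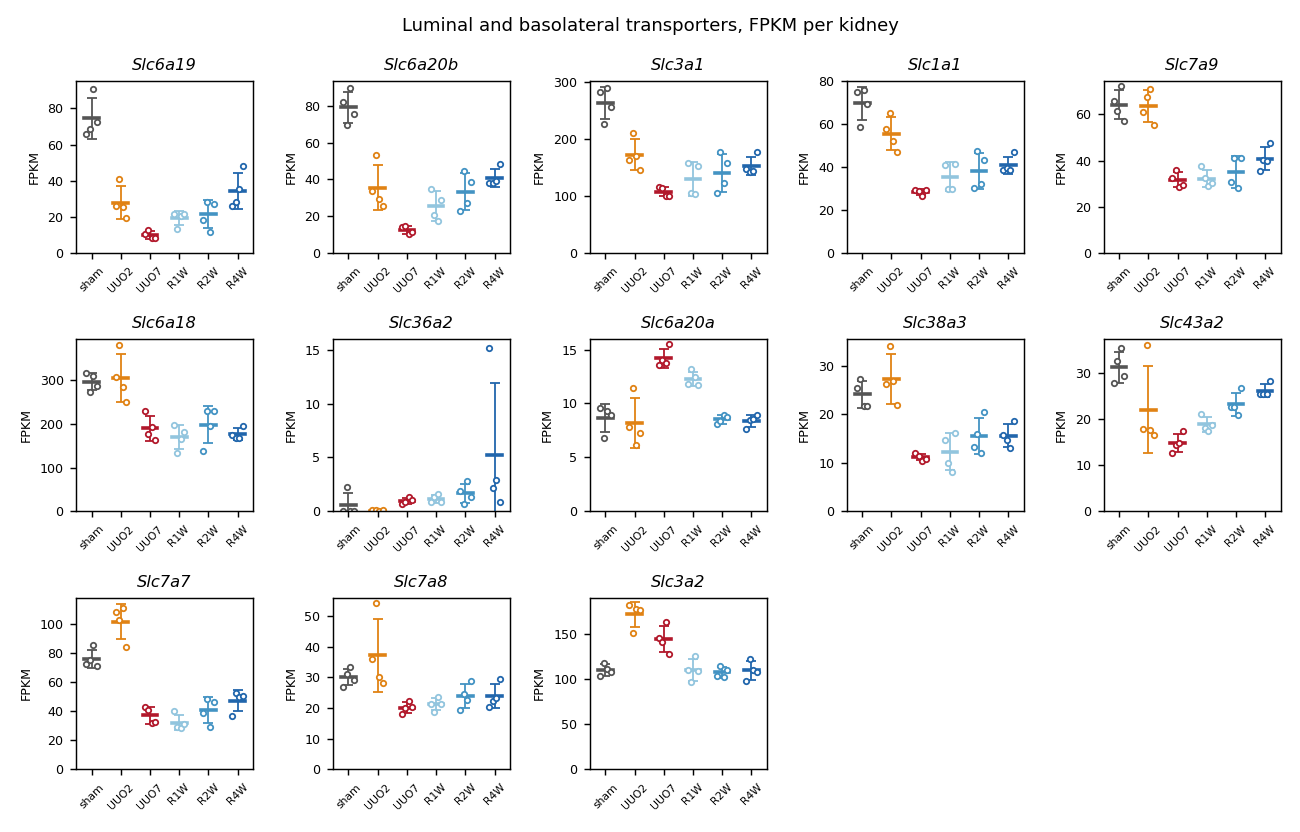
FPKM (linear axis from 0) of the 8 luminal and 5 basolateral genes by group, with each circle 1 kidney, the thick bar the mean of 4 and the thin bar the SD (cut at 0). Slc6a19 and Slc6a20b drop at UUO2 and again at UUO7 and partly return, Slc7a7 peaks at UUO2, and the single high R4W value of Slc36a2 is 15.2 FPKM.

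Promoters of 27 of the 40 members were present in a RefSeq table for GRCm38.p6 (250 bases before to 50 after each start). They were searched on both strands for 3 motifs of factors known in these settings: HNF1 (its 13-base palindrome, up to 2 mismatches) and HNF4 (CAAAGTCCA, exact), which act in the proximal tubule, and the amino acid response element of ATF4 (TGATGNAAN, exact), which acts in amino acid shortage. None of the 3 patterns is part of another. A stretch with a match outside annotated exons is shown for 4 members, with the match in capitals, all read 5′ to 3′ on the gene's strand.
Slc3a1, chr17:85028263-85028341, plus strand, HNF4 match 39 to 31 bases before the start: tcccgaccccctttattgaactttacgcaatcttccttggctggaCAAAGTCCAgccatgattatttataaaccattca
Slc7a9, chr7:35448966-35449035, plus strand, HNF1 match with 2 mismatches: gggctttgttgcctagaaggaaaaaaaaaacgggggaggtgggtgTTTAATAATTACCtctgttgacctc
Slc6a13, chr6:121300620-121300702, plus strand, HNF1 match with 1 mismatch: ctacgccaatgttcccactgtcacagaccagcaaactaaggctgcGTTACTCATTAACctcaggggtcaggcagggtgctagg
Slc7a7, chr14:54418069-54418093, minus strand, ATF4 element: cttgggctTGATGAAAGgttcactg
A match to HNF1 was held by 2 of the 27 members (Slc7a9 and Slc6a13) and by 1.36% of all 32851 promoters, one to HNF4 by 1 member (Slc3a1) and 0.47% of promoters, and one to the ATF4 element by 2 members (Slc7a7 and Slc1a4) and 3.95% of promoters. These shares count promoters, and a member can have several. Of the 44 promoters of the 27 members, some of which overlap, 3 matched HNF1, 1 HNF4 and 3 the ATF4 element. Slc7a7 held another match, TGATGCAAC, from 1 base before one of its annotated starts to base 8 of the transcript. The Slc1a4 match, GTTGCATCA on the gene's strand, ran from 5 bases before its start to base 4 of the transcript. These are descriptions of letters in a window.

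Among the basolateral carriers, 4 of 5 fell at 7 days on both scalings, beside the same 17.8% and 36.5% of all genes. The fifth, Slc3a2, was higher on deposited values alone. Slc7a7 (ENSMUSG00000000958.10, chr14:54369442-54417780) encodes y+LAT1, the light chain that passes cationic amino acids to the blood and is mutated in lysinuric protein intolerance. It was 72.0, 75.2, 85.0 and 70.8 FPKM in sham, 108, 102, 111 and 84.0 FPKM in UUO2, and 43.1, 40.9, 31.9 and 32.5 FPKM in UUO7. In R4W it was 36.4, 52.3, 49.5 and 50.3 FPKM. At 2 days 3 of 4 kidneys lay above every sham kidney and the fourth within the sham range, and at 7 days and 4 weeks every kidney lay below sham. The rise at 2 days was 0.41 (adjusted p = 0.029), not called after rescaling (0.28), and lost when any of 5 single libraries was left out (sham replicate 1, 2 or 4 or UUO2 replicate 1 or 3, with adjusted p from 0.050 to 0.081 and a difference of 0.37 to 0.41). The fall at 7 days was 1.02 against sham (adjusted p = 3.4e-06) and 1.43 against UUO2 (adjusted p = 8.4e-08). Slc7a7 overlaps Oxa1l on the opposite strand.

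Slc3a2 encodes 4F2hc, the heavy chain shared by y+LAT1, LAT1 and LAT2. It was 103, 118, 112 and 108 FPKM in sham, 182, 151, 178 and 177 FPKM in UUO2, 146, 142, 163 and 128 FPKM in UUO7, and 98.1, 123, 109.9 and 108 FPKM in R4W. Every UUO2 and UUO7 kidney lay above every sham kidney, and R4W overlapped sham. It rose at 2 days by 0.64 (adjusted p = 4.9e-06, and 0.50 after rescaling). At 7 days it was higher by 0.39 on the deposited values (adjusted p = 0.00036) and at -0.09 after rescaling, so that direction flips with the scaling. At 4 weeks it was not called against sham on deposited values (-0.01 ± 0.09, adjusted p = 0.94) but was called lower on rescaled values (-0.38). The ratio of heavy chain to y+LAT1, free of scaling, was 1.46 in sham, 1.70 in UUO2, 3.93 in UUO7 and 2.34 in R4W, and all 3 tested differences passed (exact permutation adjusted p = 0.0396 each).

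The other 3 basolateral genes fell by 0.56 to 1.04 at 7 days. Slc38a3, the glutamine carrier SNAT3 known to supply ammonia production, was 25.4, 27.4, 21.8 and 21.7 FPKM in sham, 11.9, 11.4, 10.4 and 10.8 FPKM in UUO7, and 15.8, 14.7, 13.1 and 18.7 FPKM in R4W. Slc43a2, the uniporter LAT4, was 27.7, 32.4, 35.3 and 29.4 FPKM in sham, 12.7, 14.4, 14.8 and 17.4 FPKM in UUO7, and 25.4, 25.5, 25.3 and 28.2 FPKM in R4W. Slc7a8, the exchanger LAT2, was 27.0, 31.2, 33.2 and 29.3 FPKM in sham, 18.0, 19.9, 22.3 and 20.2 FPKM in UUO7, and 20.4, 22.5, 23.4 and 29.4 FPKM in R4W. For all 3 genes every UUO7 kidney lay below every sham kidney, and in R4W Slc38a3 stayed below sham while Slc43a2 and Slc7a8 overlapped it. Slc38a3 and Slc7a8 did not differ from sham at 2 days beyond the spread (0.16 ± 0.18 and 0.25 ± 0.15, adjusted p = 0.47 and 0.19). At 4 weeks Slc38a3 was still below sham (-0.60, adjusted p = 0.0057), and Slc7a8 and Slc43a2 did not pass on deposited values (-0.33 ± 0.15 and -0.24 ± 0.16) but were called lower on rescaled values (-0.70 and -0.61).

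UUO2 replicate 2 carried much of the spread at 2 days. It had the highest sums of its group for thick ascending limb markers (1568 FPKM, median 897), for collecting duct markers (552 FPKM, median 215) and for the proximal tubule markers without Kap (2881 FPKM against 1687 to 2022). It also had the highest Slc43a2 (36.0 FPKM against 16.6 to 17.8) and Slc7a8 (54.2 FPKM against 28.3 to 36.0) of the group. Without it the fall of Slc43a2 at 2 days was -0.81 rather than -0.56, and its difference between UUO7 and UUO2 moved from -0.47 to -0.21 and lost its call (adjusted p = 0.065), as it did without UUO7 replicate 1 (-0.40, adjusted p = 0.055). The part of tissue make-up in that library was not tested.

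**Figure D3:**
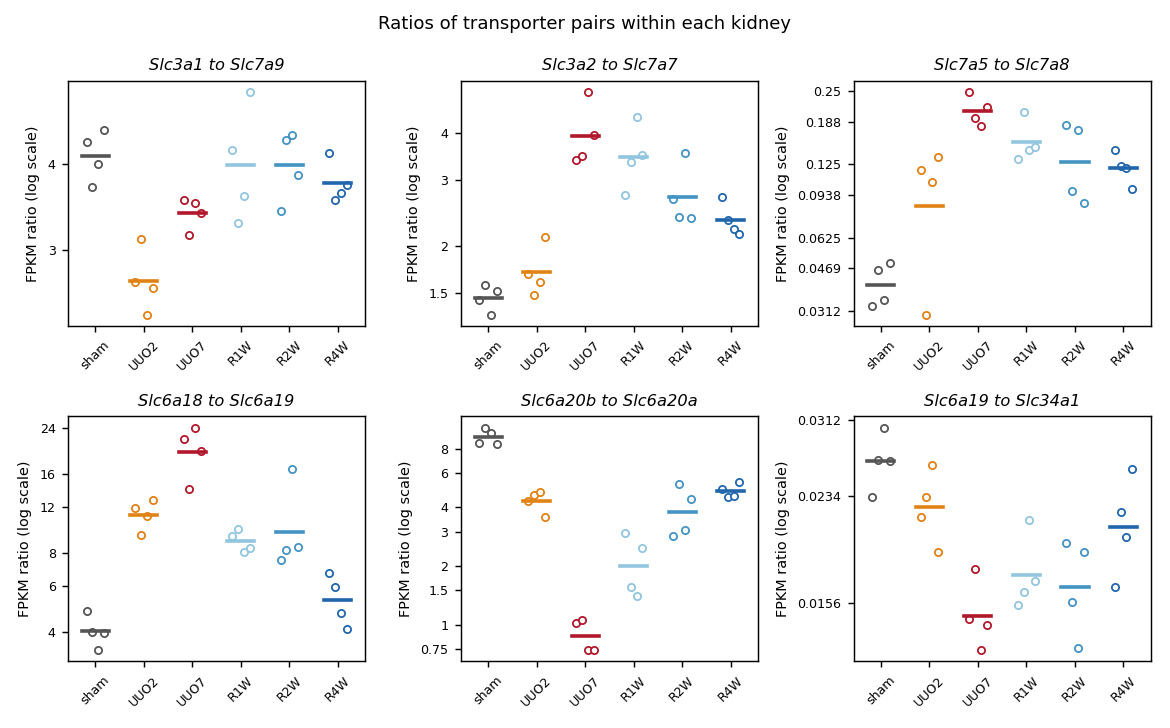
Ratios of FPKM of 6 gene pairs within each kidney (log axis) by group, with each circle 1 kidney and the bar the geometric mean of 4. Slc6a20b to Slc6a20a drops from 9.19 in sham to 0.878 in UUO7 and returns to 4.86 in R4W, while Slc7a5 to Slc7a8 climbs from 0.040 to 0.208.

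The next genes carry amino acids into cells for the cell's own use. Of 6 genes for neutral amino acids, 5 rose at 7 days on both scalings (Slc38a2, Slc7a5, Slc7a6, Slc1a5 and Slc38a1), and the sixth, Slc1a4, did not pass. Of all genes 60.1% were higher at 7 days, and 36.5% after rescaling. All 5 were still above sham at 4 weeks on both scalings, beside 54.8% and 28.9% of all genes. Their levels were well below those of the luminal genes: in UUO7 the 6 summed to 97.2 to 106 FPKM per kidney, against 358 to 444 FPKM for the 8 luminal genes. In sham these sums were 43.7 to 60.6 and 769 to 937 FPKM.

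Slc38a2 (ENSMUSG00000022462.6, chr15:96687394-96699698) encodes SNAT2, a sodium-driven carrier known to be induced by amino acid shortage and by hypertonic stress. It was 7.78, 10.8, 7.67 and 9.33 FPKM in sham, 29.1, 17.0, 28.5 and 32.4 FPKM in UUO2, 27.3, 31.4, 23.6 and 25.6 FPKM in UUO7, and 25.1, 25.4, 21.1 and 23.5 FPKM in R4W. No kidney of these later groups overlapped sham. The rise was 1.46 ± 0.18 at 2 days (adjusted p = 2e-06), 1.50 ± 0.18 at 7 days (adjusted p = 2.5e-07) and 1.33 ± 0.18 at 4 weeks (adjusted p = 3.7e-06). R4W differed from UUO7 by -0.17 ± 0.18 (adjusted p = 0.46). Its neighbour Slc38a1 (SNAT1) was far lower, at 0.51 ± 0.12 FPKM in sham and 2.06 ± 0.23 FPKM in UUO7 (SD, n = 4), and rose by 1.02 at 7 days (adjusted p = 6.2e-07).

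Slc7a5 encodes LAT1, the exchanger of large neutral amino acids of growing cells, and pairs with Slc3a2. It was 0.88, 1.44, 1.15 and 1.44 FPKM in sham, 4.27, 1.64, 3.20 and 3.81 FPKM in UUO2, 4.47, 3.88, 4.01 and 4.37 FPKM in UUO7, and 2.91, 2.76, 2.84 and 2.92 FPKM in R4W. The 3 later groups did not overlap sham. The rise was 0.89 at 2 days (adjusted p = 0.00012), 1.22 at 7 days (adjusted p = 5.9e-07) and 0.80 at 4 weeks (adjusted p = 0.00021). Against LAT2 (Slc7a8), its relative of the tubule, the ratio was 0.040 in sham, 0.208 in UUO7 and 0.121 in R4W, and all 3 tested differences passed (exact permutation adjusted p = 0.0396 each).

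Slc1a5 encodes the glutamine exchanger ASCT2. It was 21.1, 34.3, 22.6 and 26.6 FPKM in sham, 28.8, 27.6, 26.9 and 37.3 FPKM in UUO2, 56.7, 49.3, 54.6 and 57.2 FPKM in UUO7, and 102, 49.1, 58.0 and 35.0 FPKM in R4W. UUO7 lay above every sham kidney, and sham and UUO2 overlapped. The rise at 7 days was 1.05 (adjusted p = 9.3e-05). The 102 FPKM belonged to R4W replicate 1. That kidney had the highest adipose, collecting duct and urothelial sums of its group (1644, 800 and 117 FPKM). The R4W rise of 1.11 was 0.83 without that kidney (adjusted p = 0.00016).

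Slc7a6, the exchanger y+LAT2, was 1.04, 4.45, 1.28 and 1.07 FPKM in sham and 4.33, 5.70, 4.44 and 5.33 FPKM in UUO7. The high sham value was in replicate 2 and overlapped UUO7. The rise was 1.14 (adjusted p = 0.00015). Its neighbour by name, Slc7a6os, was 16.4, 17.8, 16.8 and 16.6 FPKM in sham, 26.5, 27.8, 26.4 and 26.9 FPKM in UUO7, and 20.1, 22.2, 23.5 and 21.1 FPKM in R4W. It was called higher at 7 days on both scalings and at 4 weeks on the deposited values alone (0.34, and -0.01 after rescaling).

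Slc1a4, the serine and alanine exchanger ASCT1, followed another course. It was 12.5, 8.98, 11.6 and 11.9 FPKM in sham, 27.3, 15.8, 25.8 and 22.2 FPKM in UUO2, 11.3, 8.89, 8.76 and 9.46 FPKM in UUO7, and 5.54, 5.80, 7.85 and 6.61 FPKM in R4W. Every UUO2 kidney lay above sham and every R4W kidney below it. It rose by 0.94 at 2 days (adjusted p = 2.2e-05), did not differ from sham at 7 days on the deposited values (-0.20 ± 0.15, adjusted p = 0.21; called lower after rescaling, -0.65), and fell by 0.72 at 4 weeks (adjusted p = 0.00024).

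The cationic carriers Slc7a1 and Slc7a2 and the relatives grouped with them, Slc7a4 and Slc7a12, all rose at 7 days on both scalings, where 60.1% and 36.5% of all genes were higher. Slc7a2 encodes CAT2, the arginine carrier known from activated macrophages and liver. It was 0.68, 0.74, 0.67 and 0.56 FPKM in sham, 0.59, 0.63, 0.53 and 0.61 FPKM in UUO2, 4.15, 4.67, 4.93 and 5.42 FPKM in UUO7, and 3.01, 4.58, 4.77 and 2.40 FPKM in R4W. UUO2 overlapped sham, and UUO7 and R4W lay above every sham kidney. The rise at 7 days was 1.80 ± 0.20 (adjusted p = 5.5e-08), and at 4 weeks it was 1.46 ± 0.20 (adjusted p = 2.6e-06). The summed macrophage markers had a median of 54.4 FPKM in sham, 142 FPKM in UUO2, 1034 FPKM in UUO7 and 1122 FPKM in R4W, and their part in this rise was not tested.

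Slc7a1, the arginine and lysine carrier CAT1, had already risen at 2 days. It was 1.02, 2.64, 1.00 and 1.37 FPKM in sham, 4.14, 1.94, 3.94 and 4.02 FPKM in UUO2, 4.40, 4.03, 3.85 and 5.28 FPKM in UUO7, and 4.99, 4.28, 3.91 and 4.29 FPKM in R4W. The rise was 0.86 at 2 days (adjusted p = 0.0033), 1.14 at 7 days (adjusted p = 9.4e-05) and 1.14 at 4 weeks (adjusted p = 0.00018). Only the low UUO2 replicate 2 and the high sham replicate 2 overlapped.

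Slc7a12, a carrier of small neutral amino acids placed here with its relatives, was 1.55 ± 0.49 FPKM in sham, 4.36 ± 1.2 FPKM in UUO7, 7.66 ± 2.2 FPKM in R1W, 7.50 ± 1.7 FPKM in R2W and 3.89 ± 1.9 FPKM in R4W (SD, n = 4). It rose against sham by 1.07 at UUO7, 1.75 at R1W and 1.74 at R2W (adjusted p = 0.0031, 2.8e-05 and 4.2e-05). The R4W call (0.87, adjusted p = 0.015) was lost after rescaling (0.63) and without sham replicate 4, R4W replicate 1 or R4W replicate 2 (0.69 to 0.75, adjusted p from 0.052 to 0.065). Slc7a4, a relative whose transport activity is unsettled, rose from 3.69 ± 0.53 to 6.58 ± 0.62 FPKM at 7 days (0.69, adjusted p = 2.1e-06) and fell from there by 0.37 at 4 weeks (adjusted p = 0.0043). It overlaps P2rx6 on the opposite strand.

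**Figure D4:**
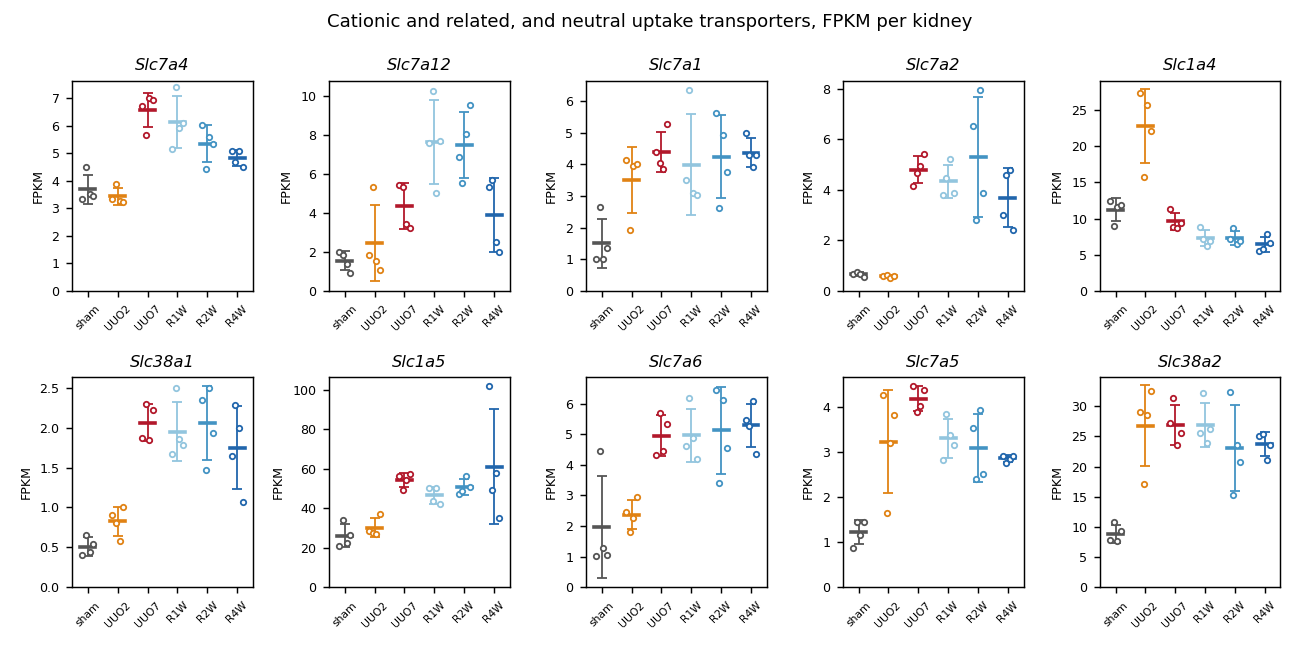
FPKM (linear axis from 0) of the 4 cationic and related genes and 6 neutral uptake genes by group, with each circle 1 kidney, the thick bar the mean of 4 and the thin bar the SD. Slc7a2 stays at sham level in UUO2 and rises at UUO7, Slc38a2 is already high in UUO2 at 17.0 to 32.4 FPKM, and Slc1a4 peaks in UUO2.

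Of 4 genes tied to the lysosome, Slc36a1 fell and Slc36a4 rose at 7 days on both scalings, where 17.8% of all genes were lower and 60.1% higher, and 36.5% each way after rescaling. Slc36a1 (PAT1), a proton-driven exporter of small neutral amino acids from lysosomes, was 29.9, 22.2, 27.6 and 24.5 FPKM in sham, 14.9, 15.7, 13.2 and 15.4 FPKM in UUO7, and 16.9, 20.0, 20.3 and 19.0 FPKM in R4W, below sham in every kidney of both groups. It fell by 0.77 at 7 days (adjusted p = 4.2e-06). Slc36a4 (PAT4) rose from 1.34 ± 0.075 to 2.63 ± 0.32 FPKM (SD, n = 4; 0.63, adjusted p = 2e-05) and was 2.96 ± 0.34 FPKM at 4 weeks. Slc38a9, the arginine sensor of the mTORC1 pathway, was higher at 7 days by 0.52 on deposited values (adjusted p = 0.00013) and not called after rescaling (0.13). Slc38a7, a lysosomal glutamine exporter, was not called at 7 days on deposited values (0.17 ± 0.12, adjusted p = 0.21) and was called lower on rescaled values (-0.26).

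The osmolyte and creatine carriers did not move together. Slc6a13, a GABA and taurine carrier of the tubule, was 83.7, 63.2, 78.8 and 75.0 FPKM in sham, 33.6, 55.4, 34.4 and 29.4 FPKM in UUO2, 33.7, 25.7, 27.6 and 26.6 FPKM in UUO7, and 42.96, 44.6, 41.5 and 44.6 FPKM in R4W. Every later kidney lay below sham. It fell by 0.99 at 2 days (adjusted p = 0.00019) and 1.37 at 7 days (adjusted p = 1.1e-06), and at 4 weeks it was 0.60 above UUO7 (adjusted p = 0.012) and 0.77 below sham (adjusted p = 0.0013).

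Slc6a12, the betaine carrier BGT1 of the renal medulla and the neighbour of Slc6a13, was 1.04, 9.89, 0.89 and 1.44 FPKM in sham and 0.42 to 0.71 FPKM in UUO7. The 9.89 FPKM was in sham replicate 2, the kidney with the highest collecting duct sum of its group (624 FPKM). Its falls at 2 days (1.13, adjusted p = 0.029) and 7 days (1.04, adjusted p = 0.027) rested on that kidney and became 0.54 (adjusted p = 0.14) and 0.45 (adjusted p = 0.17) lower without it. The calls were also lost without UUO2 replicate 1, 3 or 4 (adjusted p from 0.057 to 0.081) and without UUO7 replicate 1 (adjusted p = 0.055). Slc6a6, the taurine carrier TauT, was 57.2, 54.5, 61.1 and 47.5 FPKM in sham, 49.2, 46.9, 43.03 and 53.7 FPKM in UUO7, and 56.6, 57.1, 60.3 and 56.9 FPKM in R4W. It was not called on deposited values in any of the 9 comparisons, and after rescaling it was called lower in UUO7 (-0.66), R1W (-0.68), R2W (-0.58) and R4W (-0.30) against sham and in UUO7 against UUO2 (-0.60), and higher in R4W against UUO7 (0.37) and R1W (0.39).

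Slc6a8, the creatine carrier on chromosome X, was 68.5, 66.4, 67.9 and 66.4 FPKM in sham, 123, 96.1, 117 and 121 FPKM in UUO2, 64.8, 64.3, 59.7 and 64.0 FPKM in UUO7, and 48.0, 58.5, 53.2 and 52.2 FPKM in R4W. As for Slc1a4, UUO2 lay wholly above sham and R4W wholly below it. It rose by 0.75 at 2 days (adjusted p = 8.9e-08), was at -0.09 ± 0.07 at 7 days (adjusted p = 0.27; called lower after rescaling, -0.57) and fell by 0.34 at 4 weeks (adjusted p = 0.00043).

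Of 4 glycine and monoamine genes, 1 fell at 7 days, and after rescaling all 4 were called lower, beside 17.8% and 36.5% of all genes. Slc6a4, the serotonin carrier, went from 3.00 ± 0.58 to 1.09 ± 0.19 FPKM (SD, n = 4; -0.93, adjusted p = 3.8e-05). Slc6a9, the glycine carrier GlyT1, was 10.6 ± 0.18 FPKM in sham and 16.9 ± 2.5 FPKM in UUO2, a rise of 0.61 (adjusted p = 4.8e-05), and 12.6 ± 1.1 FPKM in UUO7. Slc6a17, a vesicular carrier known from neurons, was 5.04 ± 1.4 FPKM in sham and 6.38 ± 1.2 FPKM in R4W and was not called against sham on deposited values.

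Slc6a15, the branched-chain and proline carrier B0AT2, had group means of 10.7, 9.01 and 6.80 FPKM in R1W, R2W and R4W. It was 13.8, 10.2, 15.8 and 16.5 FPKM in sham, 15.3, 14.5, 15.4 and 14.4 FPKM in UUO7, 11.7, 10.8, 9.06 and 11.4 FPKM in R1W, 8.07, 9.38, 9.07 and 9.50 FPKM in R2W, and 6.43, 6.44, 6.50 and 7.83 FPKM in R4W. UUO7 overlapped sham, and R4W lay below every sham and every R1W kidney. It differed from sham by 0.10 ± 0.11 at 7 days (adjusted p = 0.43), and R4W was 1.03 below UUO7 (adjusted p = 1.4e-06) and 0.93 below sham (adjusted p = 4.3e-07).

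The 4 remaining genes took different courses. Slc43a3, which despite its family is known as a carrier of purine bases, was 5.78, 7.91, 5.10 and 4.81 FPKM in sham, 5.97, 6.03, 5.51 and 6.53 FPKM in UUO2, 19.8, 25.03, 20.7 and 23.8 FPKM in UUO7, and 19.8, 25.3, 26.3 and 17.4 FPKM in R4W. It stayed within the sham range at 2 days and rose by 1.77 ± 0.13 at 7 days (adjusted p = 2.5e-10), the smallest adjusted p of any member there. At 4 weeks it differed from UUO7 by -0.02 ± 0.13 (adjusted p = 0.91). Slc38a6 was 25.4, 32.3, 25.5 and 35.7 FPKM in sham, 45.6, 47.5, 49.4 and 59.3 FPKM in UUO7, and 33.9, 36.3, 29.9 and 37.4 FPKM in R4W, a rise at 7 days (0.75, adjusted p = 7.2e-06) and an overlap with sham at 4 weeks. The authors' deposited table calls it lower at 7 days (-0.28, adjusted p = 0.020), the opposite direction to the FPKM values on both scalings. Slc38a10 was 65.6, 66.3, 66.2 and 68.0 FPKM in sham, 38.4, 40.5, 25.6 and 45.4 FPKM in UUO7, and 58.1, 59.6, 58.5 and 62.9 FPKM in R4W. It fell at 7 days by 0.84 (adjusted p = 0.00087) and rose from there by 0.69 at 4 weeks (adjusted p = 0.0091). Slc1a2, the glutamate carrier GLT-1, was low throughout, at 1.08, 2.30, 1.14 and 1.15 FPKM in sham and 2.37, 2.36, 3.64 and 3.52 FPKM in UUO2, a rise of 0.73 (adjusted p = 0.0037) with no overlap.

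**Figure D5:**
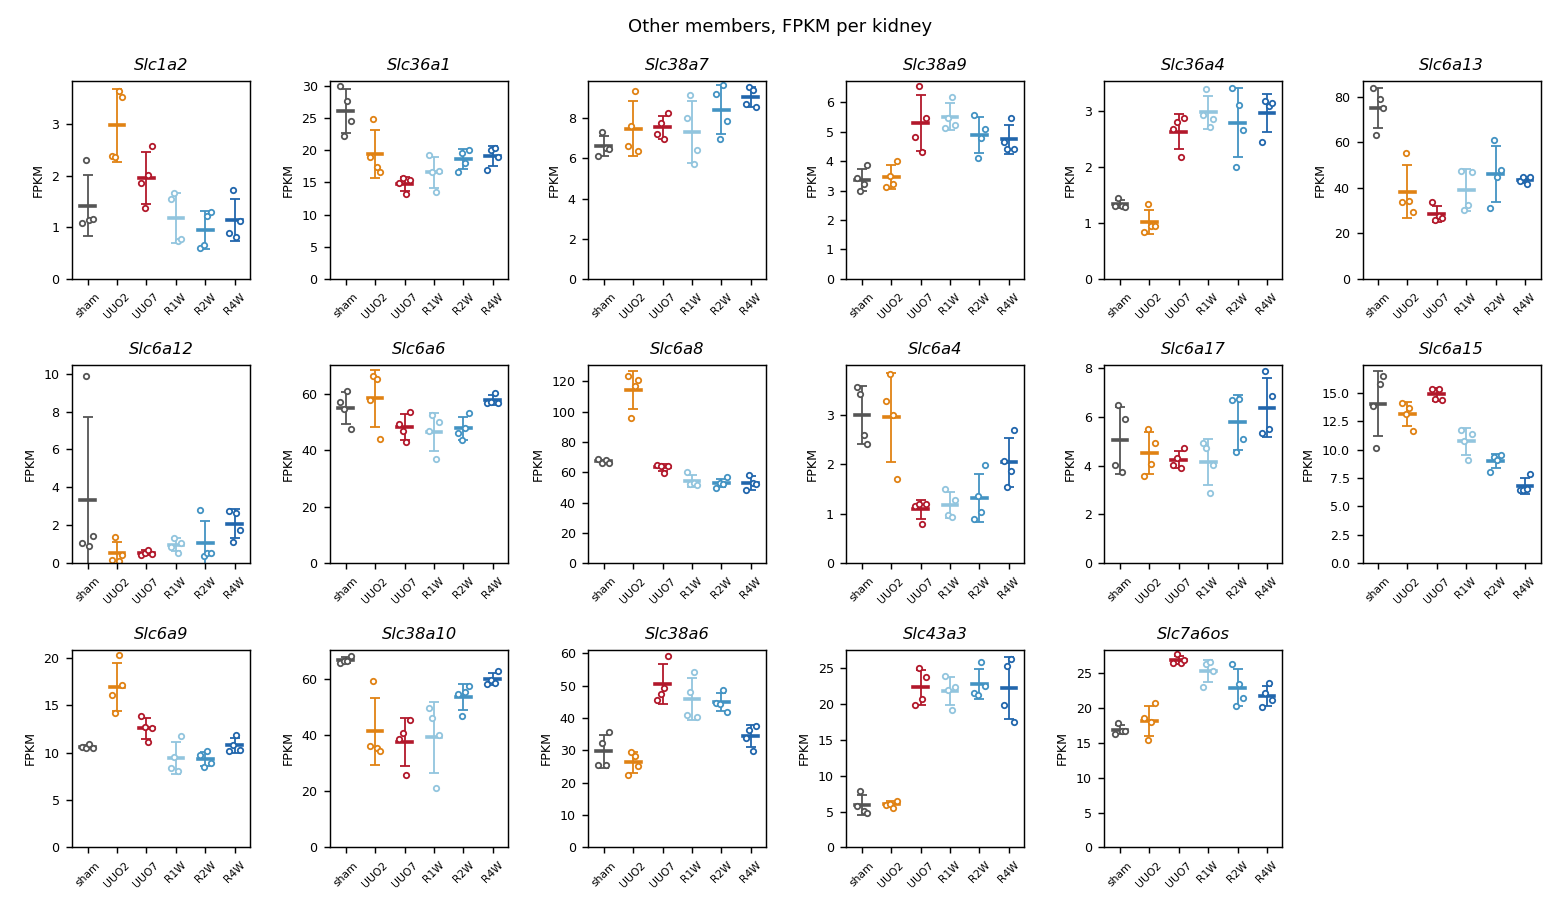
FPKM (linear axis from 0) of the other 17 genes by group, with each circle 1 kidney, the thick bar the mean of 4 and the thin bar the SD (cut at 0). Slc6a8, Slc6a9 and Slc1a2 are highest in UUO2, Slc43a3 is high from UUO7 on, and Slc6a15 is lowest in R4W at 6.43 to 7.83 FPKM.

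At 2 days of obstruction, 9 members were higher than sham and 8 lower, against 32.3% and 17.0% of all genes, and after rescaling 8 were higher and 12 lower, against 25.3% and 25.5%. The rises were Slc38a2, Slc1a4, Slc7a5, Slc7a1, Slc6a8, Slc1a2, Slc3a2, Slc6a9 and, on deposited values alone, Slc7a7. The falls were Slc6a19, Slc6a20b, Slc6a12, Slc6a13, Slc38a10, Slc3a1, Slc43a2 and Slc36a1. Between UUO2 and UUO7, 12 members rose and 16 fell, against 52.0% and 14.7% of all genes, and after rescaling 10 and 20, against 30.0% and 31.9%. The falls in that interval included Slc7a9 (-0.99, adjusted p = 7.9e-07) and Slc1a1 (-0.93, adjusted p = 6.4e-06), which had not passed against sham at 2 days, and the rises included Slc7a2 (1.86, adjusted p = 8.4e-08) and Slc43a3 (1.73, adjusted p = 1e-09).

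One week after reversal, 2 of the 40 members were above UUO7 and 3 below it on both scalings, near the shares of all genes, with 6.47% of all genes higher and 8.04% lower (7.26% and 7.14% after rescaling). Slc6a19 rose by 0.90 (adjusted p = 0.021) and Slc6a20b by 0.92 (adjusted p = 0.010), and Slc3a2, Slc6a15 and Slc6a9 fell by 0.39, 0.44 and 0.39 (adjusted p = 0.0060, 0.011 and 0.016). The call of Slc6a19 was lost without UUO7 replicate 3 or 4 or R1W replicate 1 or 4 (0.82 to 0.85, adjusted p from 0.058 to 0.065), and that of Slc6a9 without UUO7 replicate 1 or R1W replicate 1 (-0.34, adjusted p = 0.055 each). Against sham, 15 members were higher and 17 lower at 1 week (59.4% and 14.7% of all genes), and 15 higher and 15 lower at 2 weeks (56.1% and 12.9%). After rescaling each of these became 10 higher and 23 lower, with 33.7% and 34.6% of all genes at 1 week and 31.1% and 32.5% at 2 weeks.

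By 4 weeks, 13 members had risen and 10 fallen against UUO7 (17.6% and 30.8% of all genes), or 16 and 7 after rescaling (25.1% and 23.2%). The rises included 6 of the 8 luminal genes. Besides Slc6a19, Slc6a20b and Slc36a2, these were Slc3a1 (0.50, adjusted p = 0.012), Slc1a1 (0.50, adjusted p = 0.0054) and Slc7a9 (0.35, adjusted p = 0.024). The call of Slc7a9 was lost without UUO7 replicate 3 or 4 or R4W replicate 4 (0.28 to 0.32, adjusted p from 0.059 to 0.092). The neutral uptake genes gave no rise and 2 falls, Slc1a4 and Slc7a5, the latter (-0.42, adjusted p = 0.034) called on deposited values alone and lost without any single R4W replicate or UUO7 replicate 1, 3 or 4 (-0.40 to -0.44, adjusted p from 0.053 to 0.074).

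Against sham, 15 members were still higher and 14 lower at 4 weeks (54.8% and 11.6% of all genes), or 10 and 21 after rescaling (28.9% and 31.1%). The median log2 difference of the members was -0.02, beside 0.30 for all genes, and -0.35 beside -0.01 after rescaling. The luminal genes still lower on both scalings were 6, at 46% (Slc6a19), 52% (Slc6a20b), 58% (Slc3a1), 59% (Slc1a1 and Slc6a18) and 63% (Slc7a9) of the sham mean. Between R1W and R4W, 5 members rose and 4 fell (5.06% and 14.1% of all genes), or 8 and 3 after rescaling (8.67% and 8.60%). The count of 9 was 2 without R1W replicate 3 and 4 without either R4W replicate 3 or R4W replicate 4.

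The enzymes that use amino acids were examined beside their carriers. All 6 listed genes of phenylalanine and tyrosine breakdown and 8 of 9 of branched-chain breakdown fell at 7 days, on both scalings, and none rose, where 17.8% of all genes were lower on deposited and 36.5% on rescaled values. Hpd of tyrosine breakdown was 40.1 ± 3.2 FPKM in sham, 4.57 ± 1.5 FPKM in UUO7 and 23.0 ± 9.4 FPKM in R4W (SD, n = 4). In the same order, the branched-chain enzyme Ivd was 256 ± 25, 78.9 ± 6.6 and 157 ± 26 FPKM. Of 14 genes of glycine, serine and proline metabolism 9 fell and 3 were higher, 1 of these (Psph) on deposited values alone, where 60.1% of all genes were higher. Gldc of glycine breakdown fell by 2.17 and Aldh4a1 of proline breakdown by 1.68 (adjusted p = 7.5e-09 and 1.2e-08), while Aldh18a1 of proline synthesis rose by 1.68 and Phgdh of serine synthesis by 1.36 (adjusted p = 2.3e-07 and 0.00010).

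The same shares of all genes, 17.8% and 36.5% lower, stand beside the arginine and glutamine lists. Of 7 genes of arginine and ornithine metabolism 5 fell, and Oat was called higher on deposited values alone. Ass1 was 1434 ± 76 FPKM in sham, 224 ± 30 FPKM in UUO7 and 963 ± 120 FPKM in R4W, and Gatm, which makes the creatine precursor, was 233 ± 17, 48.5 ± 11 and 142 ± 24 FPKM. Of 8 genes of glutamine and ammonia handling 6 fell, led by Pck1 (-2.34, adjusted p = 1.4e-06). Among 7 partners and other carriers, Tmem27 (collectrin), the protein that carries Slc6a18 and Slc6a19 to the brush border, was 898 ± 60 FPKM in sham, 453 ± 43 FPKM in UUO2, 358 ± 53 FPKM in UUO7 and 536 ± 51 FPKM in R4W, a fall of 1.34 at 7 days (adjusted p = 1.9e-07).

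Of 9 listed genes of the response to amino acid shortage, 8 rose at 2 days on both scalings, where 32.3% of all genes were higher (25.3% after rescaling). At 7 days 7 were higher, beside 60.1% of all genes, and after rescaling 6 were higher and 1 lower, beside 36.5% in each direction. Between UUO7 and R4W 5 fell, beside 30.8% of all genes, and 4 after rescaling, beside 23.2%. Asns, the asparagine synthetase, was 3.89 ± 0.78 FPKM in sham, 30.6 ± 11 FPKM in UUO2, 19.1 ± 3.4 FPKM in UUO7 and 6.23 ± 1.5 FPKM in R4W. Of 16 genes of amino acid sensing to mTORC1, 5 were higher and 2 lower at 7 days, and 2 and 12 after rescaling, with the shares of all genes as given for UUO7 above. Sesn1 rose by 1.26 (adjusted p = 2.8e-07) and Mtor fell by 2.02 (adjusted p = 7.5e-08), both also after rescaling.

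In the authors' deposited table of comparisons, at their adjusted p under 0.05, 12 members were higher and 22 lower in UUO7 against sham, and 10 higher and 22 lower in R4W against sham. Over all 14785 genes the authors' deposited table has 5231 higher and 5529 lower in UUO7, and 4512 and 5083 in R4W. In the authors' deposited table the call in UUO7 against sham was that of the rescaled values for 35 of the 40 members and that of the deposited FPKM for 25. In the authors' deposited table for UUO2 against sham these counts were 32 and 33, and in R1W against UUO7 and R4W against R1W they were equal, at 34 each.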

How the data were processed

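Polyadenylated RNA of 24 mouse kidneys was sequenced, 4 in each of 6 groups taken from the sample titles. Per the submitters' processing notes, the tools were FastQC, Bowtie2, RSEM and DESeq2, with the mouse build mm10. Their roles, versions and strand setting are not given in the sources used here. The authors deposited 1 table of 14785 genes with 1 value per library, in FPKM as judged from the values, which sum to 717415 to 830179 per library. The same deposited table holds their own log2 fold changes and p-values, used only where named. The smallest gene mean in the table was 1.0 FPKM.

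From the FPKM values, log2(FPKM + 1) was fitted for all genes and 24 libraries in 1 model of 6 groups with limma 3.58.1 (R 4.3.3, trended eBayes), with Benjamini-Hochberg adjustment over all genes. The procedure was tested on simulated data. The 6 ratios were tested in 3 comparisons by an exact two-sided permutation test (scipy 1.17.1). Alternatives were rescaling by median ratios, pseudocounts of 0.1 and 10, a mean of at least 5 FPKM, a fold change threshold, a replicate block, fits of each pair of groups alone, the model refitted with UUO2 left out, and leaving out each library.

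Values per kidney are given for members with a group mean of at least 20 FPKM or among the 6 greatest rises or falls, and other pathway genes are named up to 3 in each direction per list. The members and lists were chosen with earlier results of these data known. A few genes of these lists are not reported here.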

Additional observations from a re-analysis of the deposited data

Results flagged for a closer look

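Within groups of 4, the gap between the highest or lowest kidney and the nearest other, divided by the group's range, passed Dixon's 95% critical value for 4 samples in 19 of 186 checks, where about 1 in 20 (9.3) is expected by chance. R4W replicate 4 stood apart 5 times, in Slc1a1 (46.79 against 38.48 to 39.64 FPKM), Slc3a1 (177.43 against 142.51 to 147.22), Slc6a20b (48.25 against 37.89 to 39.28), Slc43a2 (28.18 against 25.31 to 25.47) and Slc6a15 (7.83 against 6.43 to 6.5), each time as the highest. That kidney also had the highest sum of proximal tubule markers without Kap of its group (2906 FPKM), whose part was not tested. Sham replicate 2 stood apart 4 times, in Slc1a2 (2.3 against 1.08 to 1.15 FPKM), Slc36a2 (2.28 against 0 to 0.03), Slc6a12 (9.89 against 0.89 to 1.44) and Slc7a6 (4.45 against 1.04 to 1.28). UUO2 replicate 2 did so in Slc38a10 (59.25 against 34.12 to 36.13 FPKM), Slc43a2 (36.05 against 16.56 to 17.75) and Slc7a1 (1.94 against 3.94 to 4.14).

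The remaining values were Slc36a2 in R4W replicate 1 (15.16 FPKM), Slc6a12 in R2W replicate 1 (2.83), Slc6a19 in R1W replicate 2 (13.45), Slc7a1 in R1W replicate 2 (6.35), Slc6a6 in R4W replicate 3 (60.34), Slc6a8 in UUO7 replicate 3 (59.74) and Slc6a8 in R1W replicate 1 (60.48).

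Slc1a4 and Slc6a8 lay above every sham kidney in all 4 UUO2 kidneys and below every sham kidney in all 4 R4W kidneys. Their changes at these times were 1.65 and 1.09 apart on the log2 scale. That difference was not tested, and both changes share the sham kidneys.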

How the results depend on the processing

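Of 204 called fold changes of members over the 9 comparisons, 179 kept direction and call after rescaling by median ratios, 22 kept direction only, and 3 reversed: Slc3a2 in UUO7 against sham (-0.094), Slc38a7 in R2W against sham (-0.0439) and Slc7a6os in R4W against sham (-0.014). With a fold change of at least 1 (log2) also required, the number of members called was 4 (UUO2 against sham), 18 (UUO7 against sham), 7 (UUO7 against UUO2), 0 (R1W against UUO7), 4 (R4W against UUO7), 9 (R1W against sham), 9 (R2W against sham), 8 (R4W against sham) and 0 (R4W against R1W). When only genes averaging 5 FPKM or more were tested, 19 members were called in R4W against sham, fewer members being tested. A fit on only R4W and R1W called 3. With a pseudocount of 1 the ratio of Slc3a1 to Slc7a9 in R4W against UUO7 (0.15) passed. Leaving out 1 library at a time gave 15 to 20 members (UUO2 against sham), 30 to 32 (UUO7 against sham), 26 to 30 (UUO7 against UUO2), 4 to 5 (R1W against UUO7), 16 to 21 (R4W against UUO7), 32 to 33 (R1W against sham), 28 to 31 (R2W against sham), 27 to 30 (R4W against sham) and 2 to 13 (R4W against R1W); the causes were not tested. Replicate numbers did not pair the samples (mean correlation of deviations -0.174 to 0.148), and with a replicate block the counts were 17, 31, 28, 5, 22, 32, 30, 28 and 9 in the order of the fold change counts above. With R4W replicate 2 placed in R2W, 21 members were called in R4W against UUO7, 32 in R2W against sham, 27 in R4W against sham and 8 in R4W against R1W. With 3 kidneys against 4 the exact test cannot go below 0.0571, so the ratios without single kidneys are judged by value, and all kept their direction. Of the 40 members, 15 had no group mean of 10 FPKM or more, where the added 1 shrinks fold changes most.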
